A study of Mus musculus with 21 samples.

Results

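The acute phase response genes analysed here are 35 genes. Most encode plasma proteins made by the liver during inflammation. Others encode the receptor, transcription factors and feedback inhibitor of interleukin-6 (IL-6) signalling that act on them. A few encode proteins of the cell itself, such as the metal-binding Mt1 and Mt2 and the metalloreductase Steap4. A gene was read from the probe set that the array's annotation assigns to its symbol alone, and of several such probe sets the brightest on average was taken. On this rule 32 of the 35 genes were measured, out of 12393 genes on the array, and all 32 passed the filter for testing (a log2 value above 4 on at least 3 arrays), as did 7320 genes in all. C3 and Serpina3m had no probe set named for them here, and C4b shared its probe set with C4a and was not used.

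In the acute phase response, IL-6 binds its receptor together with gp130 on hepatocytes, JAK kinases activate the transcription factor STAT3, and STAT3 and C/EBP proteins drive the genes of secreted defence proteins. Interleukin-1 and tumour necrosis factor act beside it through NF-kB, mainly on serum amyloid A and related genes. SOCS3, itself a STAT3 target, closes the loop by inhibiting the receptor complex, and in the liver the same pathway is engaged after partial hepatectomy.

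Total liver RNA of 9-month-old male mice was measured on 21 Affymetrix arrays, 1 liver sample per array, and the values are log2 signals. Mdr2-/- mice (KO, strain FVB129P2) lack the canalicular phospholipid transporter encoded by Abcb4 and are known for chronic bile duct inflammation, and they were compared with control mice (strain FVB129P2/FVBNJ), so that genotype and strain background cannot be told apart. All mice, KO and control, had 30% of the liver removed (PHx). The lobe removed at surgery was the day 0 sample, and a second sample came from mice killed on day 2 or day 6.

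The groups were KO day 0 (6 mice), KO day 2 (3), KO day 6 (3), control day 0 (3), control day 2 (3) and control day 6 (3). KO mice 250, 254 and 258 gave samples on days 0 and 2, and KO mice 312, 332 and 337 on days 0 and 6. Control mice 263 and 265 were sampled on days 0 and 2 and control mouse 303 on days 0 and 6, while the remaining controls (264 on day 2, 392 and 393 on day 6) had no day 0 array. Replicates within a group were separate mice.

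Abcb4 read 7.25 to 8.96 on KO arrays and 9.23 to 10.33 on control arrays, and whether its probe set covers the disrupted part of the gene was not established. Array medians lay between 3.80 and 4.10, and the mean of the 11 hepatocyte markers tested was above 12 on every array. The 3' minus 5' difference of the Gapdh control probe sets, a sign of RNA integrity, was 2.03 for KO day 0 mouse 337, 9.5 for control day 2 mouse 265 and 1.58 for control day 2 mouse 263, and at most 0.94 on the other arrays. In bulk liver RNA, fewer cells of a type and less RNA per cell cannot be told apart.

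A few of the acute phase genes were higher in KO than in control livers before surgery, and many rose in control livers by day 2. On day 0, Lcn2, Hp, Hpx, Cp and Cd14 were higher in KO livers (5 of 32 genes, none lower), where 9.66% of all 7320 genes passed the test, 6.79% as higher and 2.87% as lower. In control livers 16 of the 32 genes rose by day 2 and none fell, where 9.51% of all genes passed, 5.23% rose and 4.28% fell. In KO livers none of the 32 passed on day 2 against day 0, where 0% of all genes passed, and the day 0 liver of KO mouse 258 had the highest value of the 6 for 26 of the 32 genes. On day 2 none of the 32 differed between KO and control livers by the test, where 5.71% of all genes did.

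**Figure D1:**
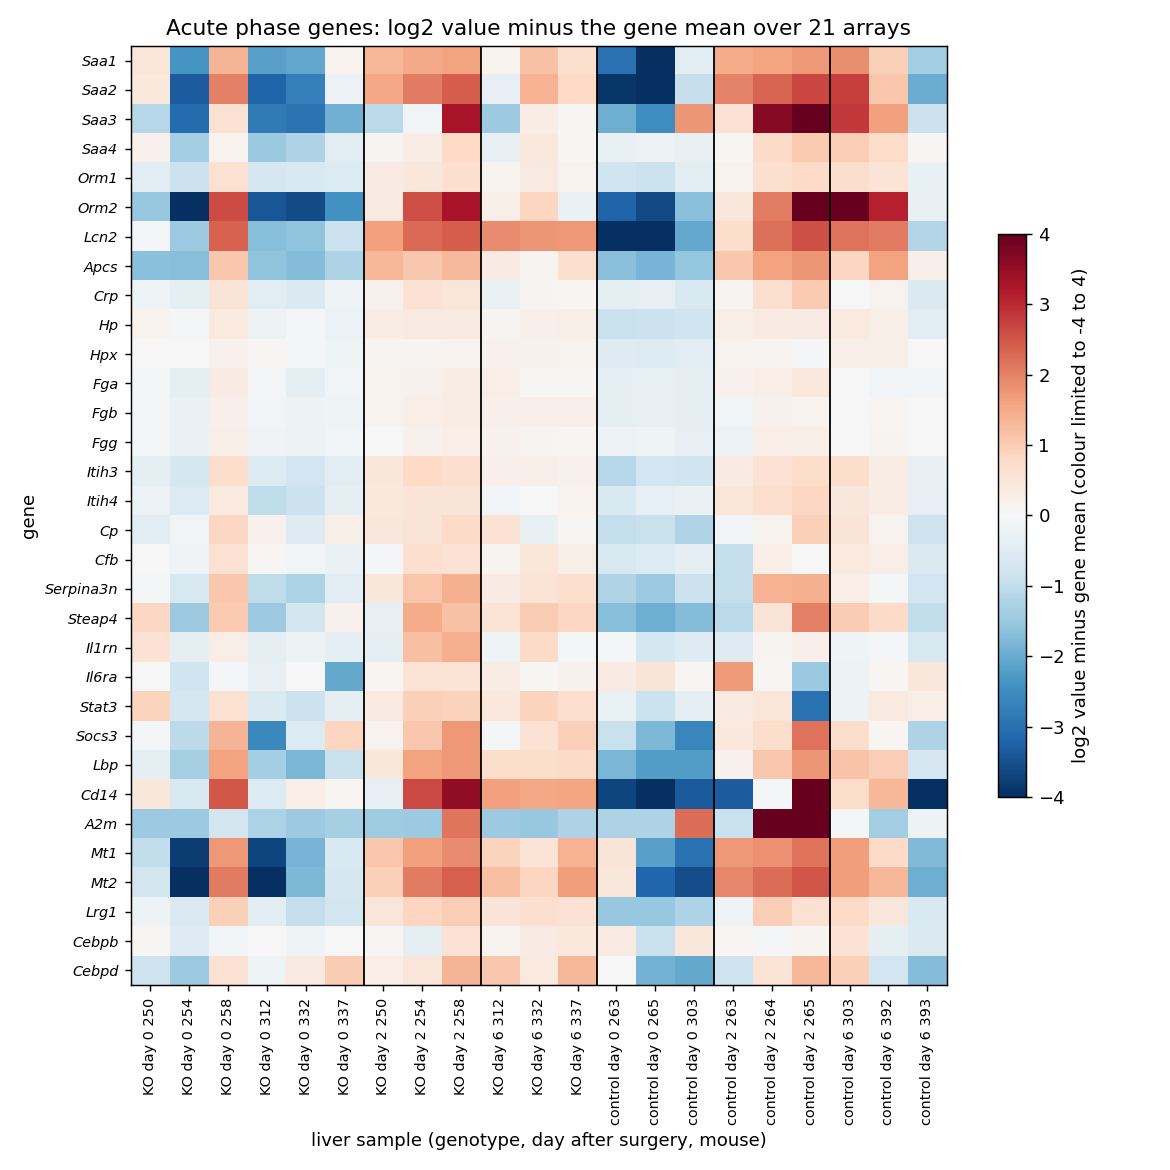
Log2 value of each of the 32 genes (rows, ordered by the gene list) minus its mean over 21 arrays, for each liver (columns, KO groups left of control groups, days 0, 2 and 6 within each); red is above and blue below the gene's mean. The column of KO day 0 mouse 258 is mostly red (mean 0.88), unlike KO day 0 mouse 254 (mean −1.28), and the 3 control day 0 columns are mostly blue (means −1.76 to −0.93).

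Among the serum amyloid A genes, apolipoproteins whose inducible forms are the classic acute phase reactants of the mouse, Saa1 and Saa2 rose in control livers by day 2. In KO livers Saa1 read between 10.96 and 14.67 (median 12.34) on day 0, 14.63, 14.83 and 14.91 on day 2 and 13.46, 14.47 and 13.96 on day 6. In control livers Saa1 read 10.34, 8.70 and 12.86 on day 0, 14.80, 14.90 and 15.03 on day 2 and 15.17, 14.27 and 11.95 on day 6. All 6 livers of day 2 lay within a narrow band near the top of the array's range (the highest value on any array was 15.19 to 15.54), whereas day 0 livers of both genotypes were spread widely and overlapped. The log2 difference of Saa1 between control day 2 and day 0 was 4.28 ± 1.02 (SE, adjusted p = 0.0175), and between KO day 2 and day 0 it was 2.25 ± 0.88 (SE; 95% interval 0.40 to 4.10, adjusted p = 0.679), which did not pass. Saa2 behaved alike, with a control difference of 5.59 ± 1.32 (SE, adjusted p = 0.0167) and a KO difference of 3.205 ± 1.14 (SE; 95% interval 0.81 to 5.60, adjusted p = 0.618). Before surgery Saa1 differed between KO and control by 1.905 ± 0.88 (SE; 95% interval 0.05 to 3.76, adjusted p = 0.209), which did not pass.

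The readings of Saa1 and Saa2 are not independent of each other, and the probe set used for Saa1 was chosen as the brighter of 2. Both probe sets carry the same transcript accession, which the RefSeq gene table lists under Saa2, and the genes are near copies. The other Saa1 probe set, whose accession is listed under Saa1 itself, averaged 14.16 in KO livers on day 2 and 12.13 on day 0, and 14.41 in control livers on day 2 and 10.19 on day 0, with a control difference of 4.22 ± 0.90 (SE, adjusted p = 0.0105 with every probe set tested on its own). Their promoter windows, 250 bases before to 50 bases after the start that the RefSeq promoter table gives (build GRCm38.p6), are printed to show this likeness. That start lies inside the outermost start of the gene in the RefSeq gene table by 201 bases for Saa1, by 206 for Mt1, by 970 for Socs3 and by 3939 for Saa3, so the last 2 windows lie within the gene, and it is the same for Saa2, Lcn2, Fgb and Mt2. Saa1 lies on the minus strand with its window at chr7:46742931-46743230, and Saa2 on the plus strand with its window at chr7:46751583-46751882. The 2 windows were 95.3% identical (287 of 301 aligned positions), against 50.9% for Saa1 and Saa3. Capitals would mark a match to any of the motifs searched (given below with the motif counts), and neither window has one.
Saa1: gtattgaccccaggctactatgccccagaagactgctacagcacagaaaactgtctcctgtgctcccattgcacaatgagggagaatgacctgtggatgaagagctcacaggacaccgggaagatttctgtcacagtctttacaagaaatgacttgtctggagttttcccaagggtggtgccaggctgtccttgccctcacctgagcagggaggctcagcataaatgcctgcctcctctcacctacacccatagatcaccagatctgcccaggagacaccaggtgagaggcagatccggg
Saa2: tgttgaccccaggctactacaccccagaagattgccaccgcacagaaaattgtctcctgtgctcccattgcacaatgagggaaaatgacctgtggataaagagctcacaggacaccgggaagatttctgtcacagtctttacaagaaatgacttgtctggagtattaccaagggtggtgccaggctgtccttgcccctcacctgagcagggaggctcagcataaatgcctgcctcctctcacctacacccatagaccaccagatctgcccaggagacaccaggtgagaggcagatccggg

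Saa3, a serum amyloid A made in macrophages as well as liver, was also measured far above its day 0 level in 2 of the 3 control day 2 livers. It read 8.15, 9.13 and 12.52 in KO livers on day 2, and between 6.14 and 9.83 (median 6.85) on day 0. Control livers read 9.80, 12.88 and 14.38 on day 2, and 7.26, 6.75 and 10.99 on day 0. On day 2 the KO and control values overlapped, with a difference of −2.42 ± 1.37 (SE; 95% interval −5.30 to 0.46, adjusted p = 0.29). The control change by day 2, 4.02 ± 1.37 (SE, adjusted p = 0.0711), did not pass, and the control day 0 livers themselves covered more than 4 log2 units. With the mouse as a block the control change passed (4.15, adjusted p = 0.0437). Saa4, the constitutive family member, read between 11.07 and 13.62 over all arrays at the probe set used and passed no test. Its control means there were 12.30 on day 0 and 13.18 on day 2. Another Saa4 probe set read between 7.19 and 11.94, with control means of 10.33 on day 0 and 9.06 on day 2.

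Lcn2 had the largest difference of the 32 genes on day 0 between genotypes and on days 2 and 6 in control livers. Lcn2 encodes lipocalin 2, which binds bacterial siderophores and is made by hepatocytes and by neutrophils. In KO livers it read between 10.08 and 14.14 (median 10.62) on day 0, 13.43, 14.06 and 14.22 on day 2 and 13.68, 13.55 and 13.52 on day 6. In control livers it read 5.61, 3.06 and 9.75 on day 0, 12.48, 14 and 14.35 on day 2 and 13.97, 13.87 and 10.60 on day 6. Every KO liver on day 0 lay above every control liver, and from day 2 on the genotypes overlapped. The difference was 5.08 ± 1.11 (SE, adjusted p = 0.00576) for KO against control on day 0, 7.47 ± 1.28 (SE, adjusted p = 0.00364) for control day 2 against day 0 and 6.67 ± 1.28 (SE, adjusted p = 0.00924) for control day 6 against day 0. Control day 0 mouse 265, at 3.06, was near background, so the sizes of the differences from control day 0 are not well determined. Without that array the day 0 difference between genotypes did not pass. The rise of Lcn2 in KO livers by day 2, 2.68 ± 1.11 (SE; 95% interval 0.35 to 5.01, adjusted p = 0.744), did not pass. The day 2 change in KO minus that in control livers was −4.79 ± 1.70 (SE; 95% interval −8.35 to −1.23, adjusted p = 0.226), a test of the difference between genotypes that did not pass either.

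Lcn2 is also a neutrophil product, and some neutrophil markers rose with it in control livers by day 2, where 5.23% of all genes rose. Of 12 neutrophil markers with a probe set, 3 passed the filter, and S100a8 and S100a9, a calcium-binding pair of myeloid cells, rose in control livers by day 2 (3.99 ± 1.0 SE, adjusted p = 0.0208 and 4.28 ± 1.04 SE, adjusted p = 0.0184). On day 0 none of the 3 tested passed between KO and control livers (median difference 0.565), where 9.66% of all genes did. The granule genes Camp, Ltf, Mpo and Elane, and Cxcr2, Mmp8 and Mmp9, were at or under a log2 value of 4 on all 21 arrays. The summed level of the 3 tested markers ran, on the log2 scale, from 6.63 to 9.57 in KO day 2 livers and 5.46 to 8.18 in KO day 0 livers, and from 8.28 to 11.46 in control day 2 livers and 5.35 to 6.69 in control day 0 livers. Their part in the Lcn2 result was not tested.

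The promoter window of Lcn2 (minus strand, chr2:32387690-32387989) is printed because of these differences, and it held no match to any of the motifs searched.
Lcn2: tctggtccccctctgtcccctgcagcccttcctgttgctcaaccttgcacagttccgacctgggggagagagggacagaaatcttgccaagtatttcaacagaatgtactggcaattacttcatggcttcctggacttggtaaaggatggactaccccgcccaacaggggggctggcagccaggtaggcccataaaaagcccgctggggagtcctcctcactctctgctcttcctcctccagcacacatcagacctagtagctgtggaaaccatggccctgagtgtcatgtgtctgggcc

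Apcs, the pentraxin serum amyloid P and a major acute phase protein of the mouse, rose in control livers on both days. In KO livers Apcs read between 11.24 and 14.06 (median 11.35) on day 0, 14.30, 14.05 and 14.28 on day 2 and 13.33, 13.09 and 13.65 on day 6. In control livers it read 11.32, 11.13 and 11.44 on day 0, 14.08, 14.61 and 14.76 on day 2 and 13.86, 14.59 and 13.18 on day 6. In KO livers only the day 0 sample of mouse 258, at 14.06, reached the later values, and the other 5 lay between 11.24 and 11.76. The control rises were 3.19 ± 0.54 (SE, adjusted p = 0.00356) by day 2 and 2.58 ± 0.54 (SE, adjusted p = 0.0129) by day 6. The KO change by day 2 was 2.37 ± 0.47 (SE, adjusted p = 0.195) with all 6 day 0 livers and did not pass, and without mouse 258's day 0 liver it was 2.81 (SE 0.25, adjusted p = 8.15e-06). Crp, the related pentraxin that is only a minor reactant in mice, rose by 1.03 ± 0.28 (SE, adjusted p = 0.0281) in control livers by day 2, and the difference in KO livers was 0.62 ± 0.24 (SE; 95% interval 0.12 to 1.13, adjusted p = 0.665), which did not pass.

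The acid glycoproteins Orm1 and Orm2 (orosomucoids, plasma carriers of basic drugs) rose in control livers by day 2. Orm2 read 9.99, 12.21 and 12.93 in KO livers on day 2, and between 5.46 and 12.24 (median 6.705) on day 0. Control livers read 10.09, 11.69 and 14.05 on day 2, and 6.43, 6.04 and 7.95 on day 0. In controls the day 2 livers all lay above the day 0 livers, and in KO livers mouse 258's day 0 sample, at 12.24, exceeded 2 of the 3 day 2 samples. The control differences were 5.14 ± 1.45 (SE, adjusted p = 0.0339) for Orm2 and 1.22 ± 0.31 (SE, adjusted p = 0.0216) for Orm1, and the KO difference for Orm2 was 4.16 ± 1.25 (SE; 95% interval 1.53 to 6.80, adjusted p = 0.605).

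**Figure D2:**
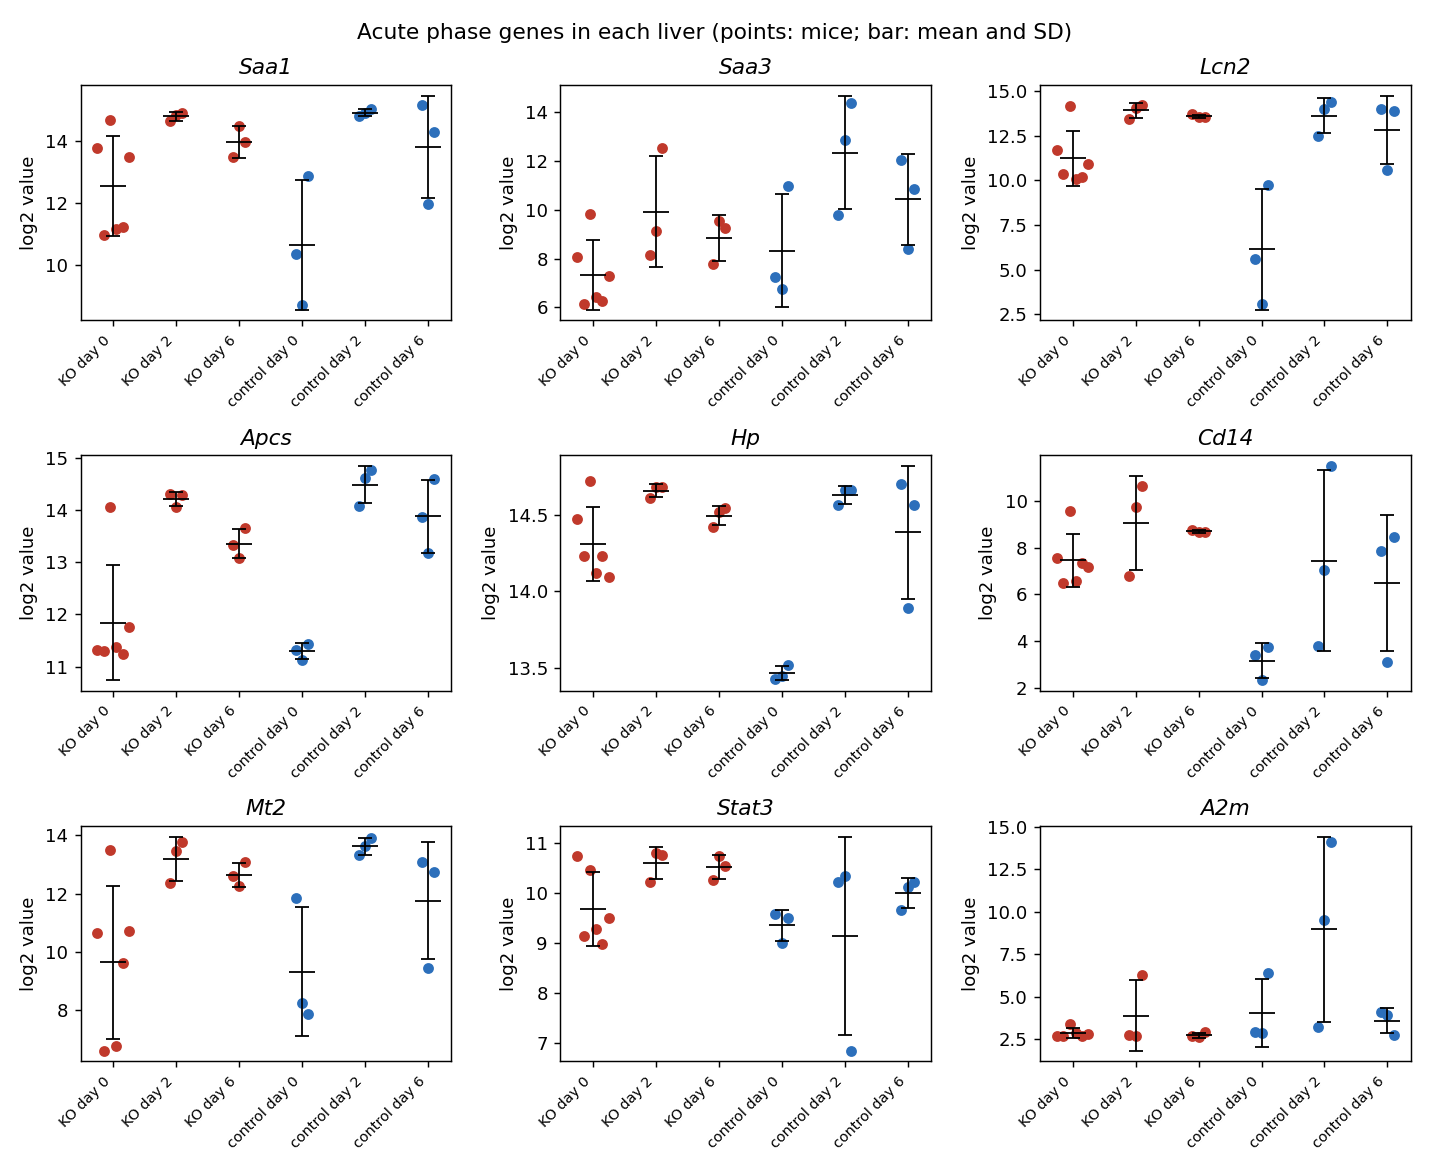
Log2 value of 9 genes in each liver (points), with group mean and SD (bars), KO groups left of control groups and days 0, 2 and 6 within each. Lcn2, Hp and Cd14 lie higher in KO than in control livers on day 0, all 6 day 2 livers lie between 14.63 and 15.03 for Saa1, near the top of the array's range, and A2m is high in 2 of 3 control day 2 livers (9.54 and 14.12).

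The haem and haemoglobin scavengers Hp (haptoglobin) and Hpx (haemopexin) were higher in KO than in control livers before surgery, and in control livers both were higher on days 2 and 6 than on day 0. Hp read between 14.09 and 14.72 (median 14.23) in KO livers on day 0, and 13.43, 13.45 and 13.52 in control livers. The lowest KO value, 14.09, lay above the highest control value, 13.52, and the difference was 0.84 ± 0.17 (SE, adjusted p = 0.00272). Control livers then read 14.56, 14.66 and 14.66 on day 2 and 14.70, 14.56 and 13.89 on day 6, differences of 1.16 ± 0.19 (SE, adjusted p = 0.00354) and 0.92 ± 0.19 (SE, adjusted p = 0.0136) from day 0. KO livers on day 2 read 14.61, 14.68 and 14.68, a change of 0.35 ± 0.17 (SE; 95% interval −0.01 to 0.70, adjusted p = 0.841) that did not pass. For Hpx the differences were 0.505 ± 0.11 (SE, adjusted p = 0.00674) for KO against control on day 0, 0.59 ± 0.13 (SE, adjusted p = 0.0124) for control day 2 and 0.67 ± 0.13 (SE, adjusted p = 0.0101) for control day 6 against day 0. The genotypes overlapped on day 2.

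Ceruloplasmin (Cp), the copper-carrying ferroxidase, followed the same order. Cp read between 13.25 and 14.59 (median 13.80) in KO livers on day 0, and 12.83, 12.89 and 12.57 in control livers, which did not overlap. The difference was 1.04 ± 0.32 (SE, adjusted p = 0.0445), and control livers rose by 1.32 ± 0.37 (SE, adjusted p = 0.0313) by day 2. Another Cp probe set read 6.67 in control day 2 mouse 265, the array with the largest Gapdh difference, where the probe set used read 14.71, so that probe sets of this gene disagree on that array.

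The fibrinogen chains, precursors of the clot, were near the top of the measured range throughout. Fga, Fgb and Fgg were above 14 on all 21 arrays, where an array has little room to show a further rise. Fga rose by 0.63 ± 0.17 (SE, adjusted p = 0.0266) in control livers by day 2. Fgb read 15.15, 15.26 and 15.31 in KO livers on day 2, and between 14.74 and 15.22 (median 14.87) on day 0. Control livers read 14.88, 15.18 and 15.14 on day 2, and 14.63, 14.71 and 14.64 on day 0. The Fgb difference in controls, 0.41 ± 0.14 (SE, adjusted p = 0.0767), did not pass, and neither did that of Fgg, 0.33 ± 0.16 (SE, adjusted p = 0.183), although in each genotype the day 2 means lay above the day 0 means for all 3 chains.

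The promoter window of Fgb (minus strand, chr3:83049814-83050113) is shown as an example with both a STAT and a C/EBP match in capitals, at positions −162 to −154 and −80 to −72 from the start of the gene. Fga held one of each too, at −234 to −226 and −173 to −165.
Fgb: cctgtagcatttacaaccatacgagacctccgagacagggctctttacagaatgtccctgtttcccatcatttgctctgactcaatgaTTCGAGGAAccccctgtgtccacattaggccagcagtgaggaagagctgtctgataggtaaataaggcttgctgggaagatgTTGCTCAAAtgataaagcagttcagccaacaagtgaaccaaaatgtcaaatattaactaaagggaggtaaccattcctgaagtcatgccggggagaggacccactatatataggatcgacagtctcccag

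Itih3 and Itih4, heavy chains of inter-alpha-trypsin inhibitor that bind hyaluronan in the matrix, both rose in control livers by day 2, by 1.45 ± 0.31 (SE, adjusted p = 0.0102) and 1.07 ± 0.28 (SE, adjusted p = 0.0237). Itih3 read 13.75, 14.09 and 13.99 in KO livers on day 2, and between 12.54 and 14.02 (median 12.80) on day 0. Control livers read 13.64, 13.90 and 14.03 on day 2, and 12.16, 12.55 and 12.52 on day 0. Cfb, factor B of the alternative complement pathway, read between 12.11 and 12.99 (median 12.345) in KO livers on day 0 and 11.75, 11.84 and 11.99 in control livers, which did not overlap, with a difference of 0.55 ± 0.27 (SE; 95% interval −0.02 to 1.12, adjusted p = 0.238) that did not pass.

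Of the protease inhibitors, Serpina3n read 12.01, 12.66 and 12.97 in KO livers on day 2, and between 10.30 and 12.62 (median 11.025) on day 0. Control livers read 10.59, 12.93 and 12.96 on day 2, and 10.34, 10.09 and 10.69 on day 0. Control mouse 263 on day 2 lay within the range of the control day 0 livers, and the control difference of 1.79 ± 0.57 (SE, adjusted p = 0.0539) did not pass, whereas with the mouse as a block it did (1.78, adjusted p = 0.0391). A2m, alpha-2-macroglobulin and the leading acute phase protein of the rat, read 2.73, 2.67 and 6.29 in KO livers on day 2, and between 2.67 and 3.41 (median 2.755) on day 0. Control livers read 3.25, 9.54 and 14.12 on day 2, and 2.90, 2.89 and 6.38 on day 0. In most livers of both genotypes it was near background, and the high values were those of control mice 264 and 265 on day 2. Its day 2 difference between KO and control was −5.07 ± 1.69 (SE; 95% interval −8.62 to −1.52, adjusted p = 0.0817), which did not pass. Without control day 2 mouse 263 it was −7.93 (adjusted p = 0.00191), so that 1 liver sets the call.

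The metallothioneins Mt1 and Mt2, small metal-binding proteins induced by zinc, glucocorticoid and IL-6, were spread widely before surgery, and among the 32 genes the SD over KO day 0 livers was largest for Mt2, at 2.63. In KO livers Mt2 read between 6.60 and 13.49 (median 10.14) on day 0, 12.35, 13.48 and 13.78 on day 2 and 12.60, 12.25 and 13.08 on day 6. In control livers it read 11.86, 8.23 and 7.87 on day 0, 13.34, 13.63 and 13.92 on day 2 and 13.08, 12.74 and 9.44 on day 6. All day 2 livers were high, while day 0 livers of either genotype covered several log2 units, and control day 0 mouse 263 and KO day 0 mouse 258 stood near the day 2 level or at it. The differences of day 2 against day 0 were 3.56 ± 1.22 (SE; 95% interval 0.99 to 6.13, adjusted p = 0.606) in KO and 4.31 ± 1.41 (SE, adjusted p = 0.0607) in control livers, neither of which passed. With the mouse as a block the control difference of Mt2 passed (4.30, adjusted p = 0.0467), as did that of Mt1 (3.44, adjusted p = 0.0493). In the model without it, those of Mt1 were 3.07 ± 0.99 (SE; 95% interval 0.99 to 5.16, adjusted p = 0.605) and 3.44 ± 1.15 (SE, adjusted p = 0.0646).

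The promoter windows of the neighbouring genes Mt2 (chr8:94172368-94172667) and Mt1 (chr8:94178839-94179138), both on the plus strand, are printed below. They were chosen because the genes belong to 1 family and Mt2 had the largest SD over KO day 0 livers. Over control day 0 livers the SD was largest for Lcn2, at 3.38. Capitals mark the core of the metal response element, of which Mt2 held 4 matches and Mt1 held 3, and the windows were 46.7% identical.
Mt2: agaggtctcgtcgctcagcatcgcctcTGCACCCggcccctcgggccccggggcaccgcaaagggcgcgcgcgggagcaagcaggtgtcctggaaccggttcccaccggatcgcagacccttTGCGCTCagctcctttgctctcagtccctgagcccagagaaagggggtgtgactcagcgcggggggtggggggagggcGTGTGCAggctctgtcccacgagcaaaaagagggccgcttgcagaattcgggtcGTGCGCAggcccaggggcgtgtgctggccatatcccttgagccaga
Mt1: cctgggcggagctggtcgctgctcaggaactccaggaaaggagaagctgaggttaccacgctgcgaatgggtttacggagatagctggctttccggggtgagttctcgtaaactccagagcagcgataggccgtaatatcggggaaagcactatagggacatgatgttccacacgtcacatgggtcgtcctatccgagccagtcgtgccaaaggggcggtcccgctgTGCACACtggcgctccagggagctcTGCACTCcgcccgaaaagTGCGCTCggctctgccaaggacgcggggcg

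Lbp and Cd14, which bring bacterial lipopolysaccharide to the Toll-like receptor, passed in different comparisons. Lbp, the secreted carrier, rose in control livers by 3.10 ± 0.67 (SE, adjusted p = 0.0115) by day 2 and 2.58 ± 0.67 (SE, adjusted p = 0.0472) by day 6. It read 11.65, 12.82 and 12.92 in KO livers on day 2, and between 9.37 and 12.82 (median 10.095) on day 0. Control livers read 11.37, 12.28 and 12.96 on day 2, and 9.37, 8.97 and 8.96 on day 0, so the control days did not overlap. Cd14, the receptor carried by macrophages and hepatocytes, was higher in KO livers on day 0. It read between 6.50 and 9.58 (median 7.275) in KO livers, and 3.42, 2.33 and 3.76 in control livers. All 3 control values were at or under 4, near background, so the size of the difference, 4.29 ± 1.31 (SE, adjusted p = 0.0451), is not well determined. On day 2 Cd14 read 6.79, 9.74 and 10.64 in KO livers and 3.78, 7.04 and 11.48 in control livers, which overlapped.

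A minority of macrophage markers differed on day 0, as Cd14 did. Of 13 tested, Lyz2 and Ctss, a lysozyme and a lysosomal protease, were higher in KO livers (2.46 ± 0.75 SE, adjusted p = 0.0432 and 1.54 ± 0.44 SE, adjusted p = 0.0318), 11 did not pass, where 6.79% of all genes were higher, and Itgam was at or under 4 on every array. The summed level of the 13, on the log2 scale, ran from 12.85 to 13.55 in KO day 0 livers and from 11.71 to 12.50 in control day 0 livers. Their part in the Cd14 result was not tested.

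Lrg1, a leucine-rich glycoprotein that STAT3 induces, rose in control livers by 1.91 ± 0.41 (SE, adjusted p = 0.011) by day 2 and 1.62 ± 0.41 (SE, adjusted p = 0.0389) by day 6. On day 0 it read between 12.11 and 14.03 (median 12.555) in KO livers, and 11.55, 11.57 and 11.84 in control livers, which did not overlap, and the difference of 1.09 ± 0.35 (SE; 95% interval 0.34 to 1.83, adjusted p = 0.0602) did not pass. Steap4, a metalloreductase induced by inflammation, read between 9.75 and 12.26 (median 10.915) in KO livers on day 0, and 9.51, 9.24 and 9.46 in control livers. Every KO value was above every control value, but the difference of 1.53 ± 0.66 (SE, 95% interval 0.15 to 2.91, adjusted p = 0.166) did not pass. Another Steap4 probe set had control means of 7.34 on day 0 and 7.16 on day 2, against 9.40 and 11.69 at the probe set used. Il1rn, the interleukin-1 receptor antagonist, read 4.30 to 6.45 over all arrays at the probe set used and passed no test, and 2 other probe sets of the gene read 9.43 and 8.84 in control day 2 mouse 265.

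Within the IL-6 pathway, Socs3 rose in control livers by day 2. The receptor Il6ra, Stat3, Cebpb and Cebpd passed no test at the probe sets used. Socs3 read 9.12, 10.06 and 10.73 in KO livers on day 2, and between 6.42 and 10.33 (median 8.695) on day 0. Control livers read 9.42, 9.70 and 11.15 on day 2, and 8.11, 7.20 and 6.37 on day 0. The control difference was 2.86 ± 0.79 (SE, adjusted p = 0.0322), with no overlap between days, and the KO difference was 1.31 ± 0.69 (SE; 95% interval −0.13 to 2.76, adjusted p = 0.899), which did not pass. Cebpd, the inducible C/EBP factor, read 7.08, 8.44 and 9.23 in control livers on day 2, and 7.89, 6.02 and 5.86 on day 0, a difference of 1.66 ± 0.73 (SE, adjusted p = 0.148). Cebpb read 9.70 to 11.18 over all arrays at the probe set used. Another Cebpb probe set read between 2.25 and 9.2, with control means of 8.22 on day 0 and 6.01 on day 2.

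The lowest readings of Stat3 and Il6ra came from arrays with a Gapdh difference above 1. Stat3 read 10.22, 10.80 and 10.76 in KO livers on day 2, and between 8.98 and 10.73 (median 9.39) on day 0. Control livers read 10.22, 10.34 and 6.85 on day 2, and 9.57, 8.99 and 9.49 on day 0, and the lowest value, 6.85, was that of mouse 265. At another Stat3 probe set the control day 2 livers read 9.55, 9.44 and 8.99. Its control means were 8.26 on day 0 and 9.33 on day 2, against 9.35 and 9.14 at the probe set used. The 2 probe sets thus differed in direction. Il6ra read 6.87, 5.24 and 3.67 in control livers on day 2, and its lowest values were 3.67 for that array and 3.11 for KO day 0 mouse 337. Control day 2 mouse 263, the third such array, had the highest Il6ra value of all, 6.87, and a Stat3 value of 10.22. On day 0 Il6ra read between 3.11 and 5.17 (median 4.98) in KO livers, and 5.48, 5.69 and 5.23 in control livers. The KO values all lay below the control values, and the difference did not pass. Whether RNA integrity has a part in these values was not tested.

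The promoter window of Socs3 (minus strand, chr11:117969317-117969616) is printed as that of the pathway's own inhibitor, and its STAT match, at −154 to −146 from the start the table gives, is in capitals.
Socs3: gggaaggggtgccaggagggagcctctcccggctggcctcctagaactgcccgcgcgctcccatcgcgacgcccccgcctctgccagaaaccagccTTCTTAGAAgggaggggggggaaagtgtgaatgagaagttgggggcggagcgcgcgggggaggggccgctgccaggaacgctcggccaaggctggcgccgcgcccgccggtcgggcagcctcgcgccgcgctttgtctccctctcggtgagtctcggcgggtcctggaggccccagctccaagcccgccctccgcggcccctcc

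Of the other cytokines and receptors of the IL-6 family and their kinases, 6 of 10 with a probe set could be tested. Il6 itself read 2.13 to 2.28 on all 21 arrays, and Lif and Il11 were also at or under 4 throughout, so these transcripts were not measurable here. The oncostatin M receptor Osmr was higher in KO than in control livers on day 0 and the leukaemia inhibitory factor receptor Lifr was lower. Osmr read between 4.98 and 7.96 (median 6.10) in KO livers on day 0, and 3.10, 2.88 and 3.11 in control livers, all 3 of which were at or under 4, a difference of 3.25 ± 0.71 (SE, adjusted p = 0.0057). Lifr read between 8.77 and 9.49 (median 9.305) in KO livers on day 0, and 10.76, 12.19 and 11.83 in control livers, without overlap, a difference of −2.35 ± 0.30 (SE, adjusted p = 4.44e-05). The means of control livers changed the same way by day 2, with Osmr higher by 3.37 ± 0.82 (SE, adjusted p = 0.0184) and Lifr lower, at −1.17 ± 0.35 (SE, adjusted p = 0.0418). Lifr read 11.06, 10.35 and 9.86 in control livers on day 2, which overlapped with day 0. It was higher on day 2 than on day 0 in mouse 263 (11.06 against 10.76) and lower in mouse 265 (9.86 against 12.19). On day 6 Lifr was again lower in KO than in control livers, at −1.95 ± 0.35 (SE, adjusted p = 0.00425). No other gene of the 6 passed in these comparisons. Of all genes, 9.66% passed between KO and control livers on day 0 and 1.73% on day 6. In control livers 9.51% passed by day 2.

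Among 16 tested genes of interleukin-1, tumour necrosis factor and NF-kB signalling, Ly96 (the MD-2 partner of the lipopolysaccharide receptor) and Bcl3 (a nuclear IkB protein) were higher in KO livers on day 0, by 2.56 ± 0.43 (SE, adjusted p = 0.000627) and 1.43 ± 0.36 (SE, adjusted p = 0.0158), and Il1rap, the interleukin-1 receptor's accessory chain, was lower, at −1.07 ± 0.16 (SE, adjusted p = 0.000261). Ly96 also rose in control livers by day 2, by 1.87 ± 0.50 (SE, adjusted p = 0.0267). All 3 control day 0 values of Ly96 were between 2.71 and 2.92, near background, so the sizes of its 2 differences are not well determined. Tnf and Il1a were at or under 4 on every array. Of all genes, 6.79% were higher and 2.87% lower in KO livers on day 0, and 5.23% rose in control livers by day 2. These shares apply to the next 2 lists as well. Of 7 inhibitors of STAT signalling tested, none passed in KO against control on day 0, and Ptpn2, a tyrosine phosphatase of JAK kinases and STATs, rose in control livers by day 2, by 0.80 ± 0.23 (SE, adjusted p = 0.0369). Among 14 tested STAT3 and immediate early target genes, Icam1, Ccnd1 and Jun were higher in KO livers on day 0, by 2.385 ± 0.64 (SE, adjusted p = 0.0235), 1.85 ± 0.49 (SE, adjusted p = 0.0224) and 1.47 ± 0.44 (SE, adjusted p = 0.0432). On day 2 Ccnd1 and Jun were again higher in KO livers, by 2.11 ± 0.57 (SE, adjusted p = 0.0371) and 2.24 ± 0.51 (SE, adjusted p = 0.0191). Of all genes, 5.71% passed between KO and control livers on that day. In control livers Fgl1 alone of the 14 passed, higher on days 2 and 6 than on day 0. By day 6, 2.12% of all genes were higher there.

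KO livers before surgery carried higher levels of a few of the 32 genes. The median difference over the 32, KO minus control on day 0, was 0.52 on the log2 scale, against 0.02 over all genes tested, and 25 of the 32 were positive. Without KO day 0 mouse 258 this median was 0.23. For 9 of the 32 every KO value lay above every control value, where this held for 11.6% of all genes. The spread before surgery was also measured: the median SD over the 32 genes was 0.74 in KO day 0 livers and 0.23 in control day 0 livers, against 0.29 and 0.21 over all genes. Without mouse 258 the KO median SD was 0.45, and the spreads of these groups of 6 and 3 livers were not tested against each other. The call for Hp held in all 31 alternative settings, which include leaving out each array. The number called was 2 without control day 0 mouse 265. It was 3 without KO day 0 mouse 254, 258, 312 or 337, without KO day 2 mouse 254, without KO day 6 mouse 337, and without control day 0 mouse 263 or 303. Markers of stellate cells and fibroblasts also stood higher in KO livers on day 0. Of 9 tested, 7 were past the threshold and none lower, where 6.79% of all genes were higher. The summed level of these markers on the log2 scale ran from 12.18 to 13.37 in KO and from 10.41 to 11.03 in control livers. Their part in the results for the 32 genes was not tested.

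In control livers 16 of the 32 genes rose by day 2 and 6 by day 6. The median difference of the 32 genes was 1.55 on day 2 and 0.97 on day 6 against day 0, against 0.08 and 0.00 over all genes. By day 2 the values of 22 genes did not overlap with day 0 and were higher, where 15.2% of all genes did so. Markers of other cells moved on the same day: Col3a1 and Pdgfrb of 9 stellate cell and fibroblast markers and Gpm6a of 2 mesothelium markers were higher on day 2 than on day 0, as were S100a8 and S100a9. Of 11 hepatocyte markers Hpd was lower and none higher, and their summed level on the log2 scale ran from 17.14 to 17.28 on day 2 and from 17.51 to 17.57 on day 0, without overlap. Krt23 of 4 cholangiocyte markers and Cela1, the 1 pancreas marker tested, were lower. Of all genes, 5.23% rose and 4.28% fell by day 2. The part of these markers in the day 2 results was not tested. By day 6, Lcn2, Apcs, Hp, Hpx, Lbp and Lrg1 were still higher than on day 0 (6 of 32, none lower), where 2.86% of all genes passed and 2.12% were higher. Between day 6 and day 2 none of the 32 passed, where 1.94% of all genes did. As measured, 27 of the 32 differences were negative, and 3 of 32 had an unadjusted p under 0.05, where 21.7% of all genes did.

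These control counts lean on single livers. On day 2 mouse 265 had the highest value of the 3 livers for 24 of the 32 genes and mouse 263 the lowest for 28, and both arrays had a Gapdh difference above 1. The day 2 count was 6 without mouse 265 on day 2, 6 without it on day 0, and 23 without mouse 263 on day 2. With KO day 0 mouse 337 and both of these day 2 arrays left out, which leaves mouse 264 alone on day 2 and borrows the spread of the other groups, the count was 0 and the median difference 1.67. On day 6 mouse 393 was lowest for 27 genes, and the count was 12 without it. The day 6 count was 0 without control day 6 mouse 392 or control day 0 mouse 265, and 3 without control day 6 mouse 303 or control day 0 mouse 263.

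In KO livers no gene of the 32 passed between day 2 and day 0 by limma, yet all 32 differences were positive, with a median of 1.02 on the log2 scale against −0.02 over all genes, and 19 of 32 had an unadjusted p under 0.05, where 6% of all genes did. The 2 days did not overlap for 2 genes, where 0.97% of all genes were higher without overlap. Without KO day 0 mouse 258, 7 genes rose by day 2, where 0.437% of all genes passed: Orm1, Orm2, Apcs, Itih3, Itih4, Lbp and Lrg1, with Orm2 at 5.10 (adjusted p = 0.0212). On day 6 against day 0 none of the 32 passed, where 0.137% of all genes did, 31 of 32 differences were positive and the median was 0.78. Of the 32, 9 had an unadjusted p under 0.05, where 5.44% of all genes did. Apcs passed without mouse 258 (1.96, adjusted p = 0.00104). Between KO day 6 and day 2 none passed, where 0.123% of all genes did, and 28 differences were negative. Of the 32, 0 reached an unadjusted p under 0.05, where 4.99% of all genes did.

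**Figure D3:**
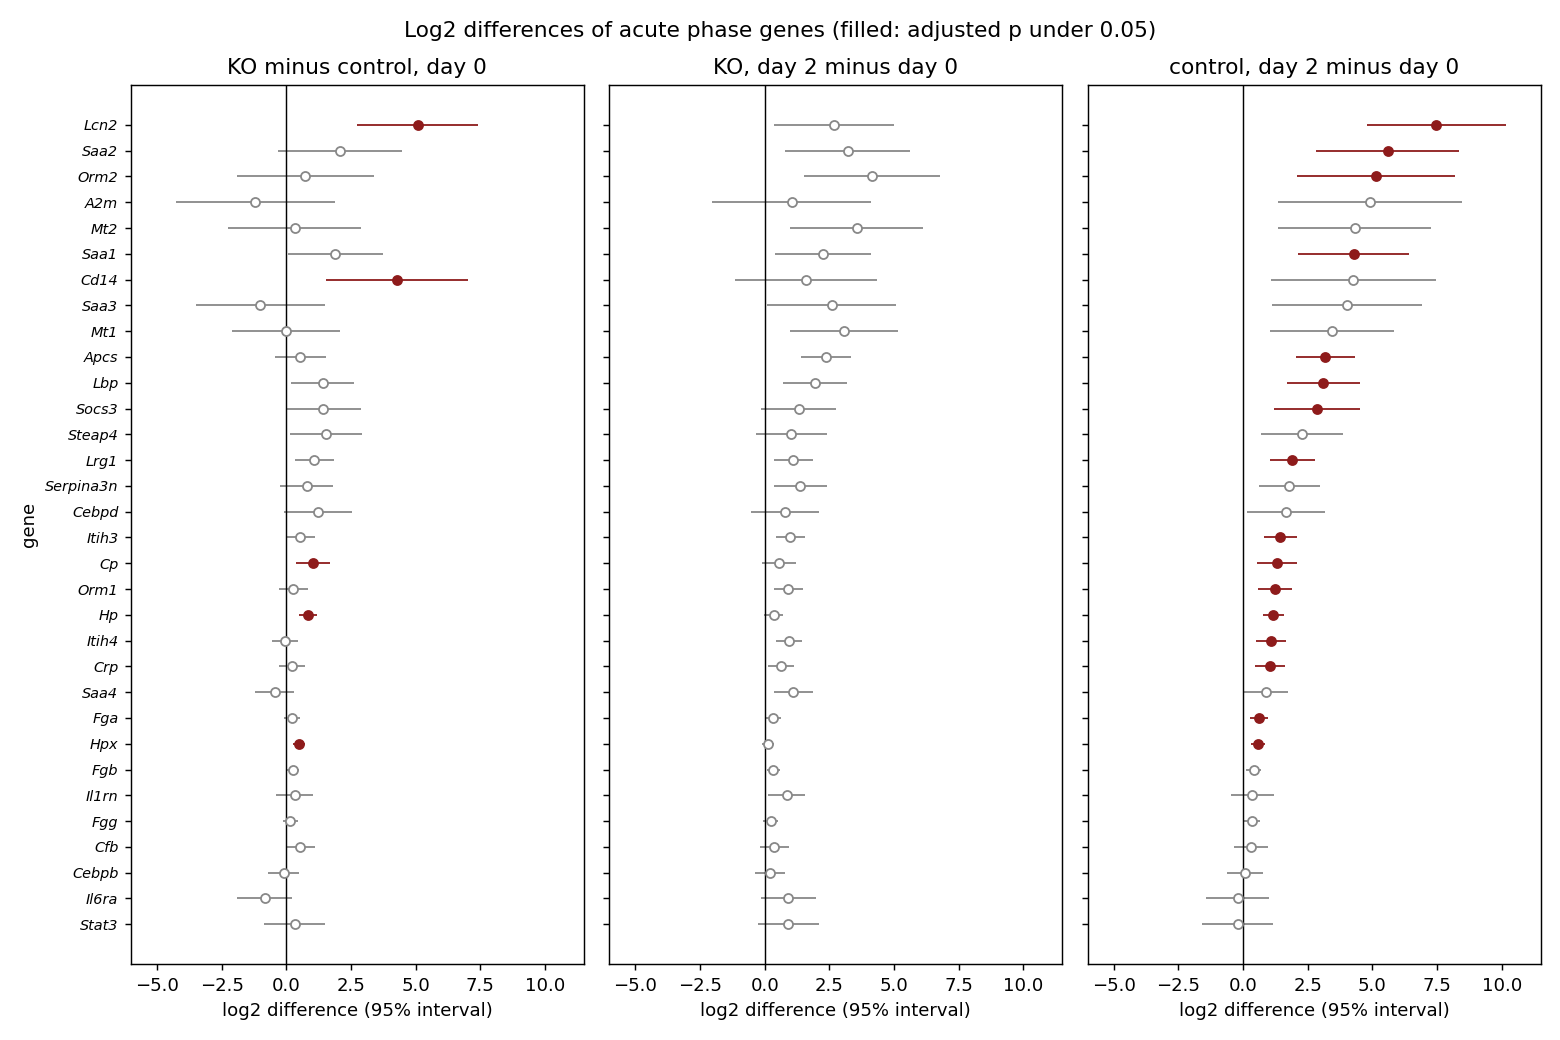
Log2 difference with its 95% interval for each of the 32 genes (rows, ordered by the control change by day 2), in KO minus control livers on day 0 (left), KO day 2 minus day 0 (middle) and control day 2 minus day 0 (right); filled points passed at an adjusted p of 0.05. Filled points number 5, 0 and 16, and in the middle panel all 32 points lie right of 0.

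The size of the response was then compared between genotypes. On day 2 the change from day 0 was smaller in KO than in control livers for 26 of the 32 genes as measured. The median was −0.60 on the log2 scale against −0.10 over all genes, and without KO day 0 mouse 258 it was −0.25. None of the 32 passed, where 0% of all genes did. Of the 32, 3 had an unadjusted p under 0.05, where 14.6% of all genes did. The differences in change were −0.81 ± 0.26 (SE; 95% interval −1.35 to −0.27, adjusted p = 0.194) for Hp and −0.45 ± 0.17 (SE; 95% interval −0.81 to −0.09, adjusted p = 0.249) for Hpx. On day 6 none passed, where 0.164% of all genes did, and 24 of 32 were negative. On that day 3 of 32 had an unadjusted p under 0.05, where 5.36% of all genes did. These comparisons share their day 0 livers with those of each day alone.

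After surgery none of the 32 genes passed between KO and control livers. On day 2, 2 of 32 had an unadjusted p under 0.05, where 24.4% of all genes did. The median KO minus control difference of the 32 genes was 0.05. This median turned to −0.21 without control day 2 mouse 263 and was 0.16 without KO day 2 mouse 250. The 95% intervals were wide for several genes, as for Saa1, whose difference was −0.12 ± 1.02 (SE; 95% interval −2.26 to 2.02, adjusted p = 0.96), so a difference of that width was not detectable with these numbers of mice. On day 6 none of the 32 passed, where 1.73% of all genes did. Of the 32, 0 had an unadjusted p under 0.05, where 12.9% of all genes did, and the median difference was 0.17. This median turned to −0.12 without control day 6 mouse 393 and was 0.39 without control day 6 mouse 303. For 5 genes the day 6 KO livers all lay above the control livers, where 8.63% of all genes did.

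Followed within each mouse, most of the 32 genes were higher in the later sample than in the day 0 lobe, with very different sizes. Over all genes tested, the median difference within a mouse ran from −0.145 (KO mouse 337) to 0.21 (control mouse 265). KO mouse 254 was higher on day 2 than on day 0 for 31 of the 32 genes, with a median difference of 1.62 and Mt2 highest, at 6.88. KO mice 250 and 258 were higher for 25 genes each and lower for 7 each, with medians of 0.28 and 0.18. The control mice 263 and 265 were higher on day 2 for 28 and 30 genes, with medians of 0.88 and 1.96. Lcn2 differed by 6.87 in mouse 263, and by 11.29 in mouse 265, whose day 0 value of 3.06 was near background, so the size of that difference is not well determined. By day 6, KO mice 312, 332 and 337 were each higher for 31 genes, with medians of 0.98, 1.05 and 0.59, and control mouse 303 for 30, with a median of 1.24. The small medians of KO mice 250 and 258 belong to the KO livers with the highest mean over the 32 genes on day 0.

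**Figure D4:**
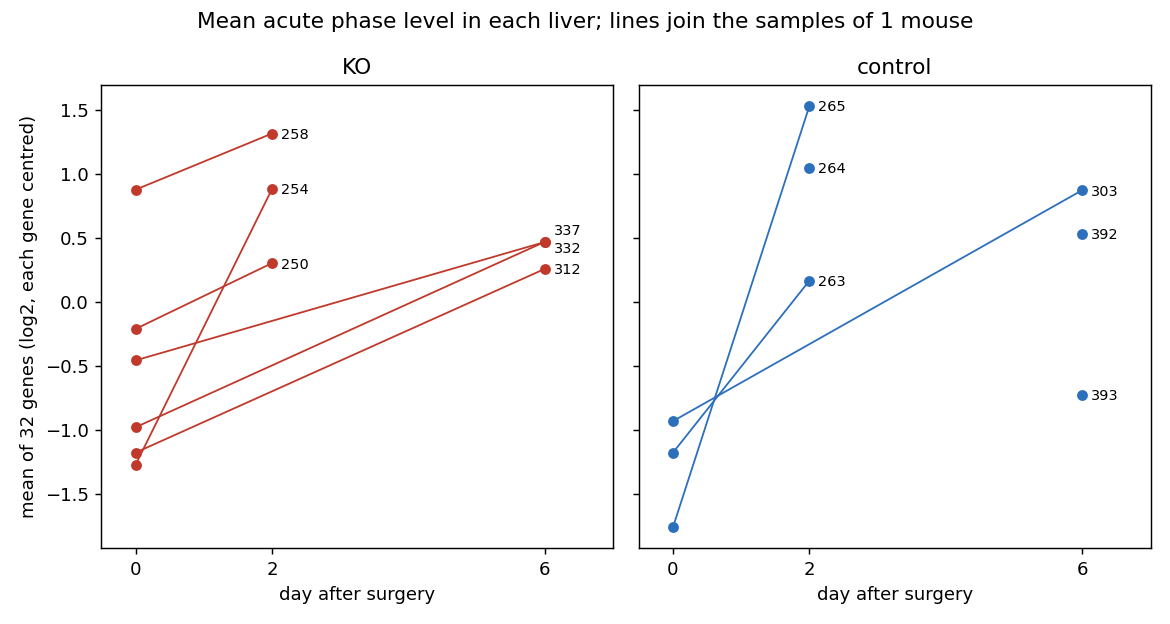
Mean of the 32 genes, each centred on its mean over 21 arrays (log2), by day after surgery in KO (left) and control livers (right); each line joins the samples of 1 mouse and unjoined points are mice sampled once. KO day 0 livers range from −1.28 to 0.88 and control day 0 livers from −1.76 to −0.93, and all day 2 livers lie above 0.

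The letters of the promoter windows were compared with all windows in the RefSeq table. Of the 35 genes, 26 had a window used here, with 29 windows, C3 included, among 32851 windows in all, and both strands were searched. Cd14 was left out by its chromosome, and the windows of the whole table were not limited in this way. The STAT letters TTCNNNGAA occurred in 6 of the 29 windows (20.7%), those of Apcs, Fga, Fgb, Steap4, Socs3 and Itih4, and in 8.30% of all windows. The C/EBP letters TTGCNNNAA occurred in 8 (27.6%), in Cp, Fga, Fgb, Orm2, Saa3, Saa4 and Lrg1, and in 9.56% of all. A kB element of NF-kB (GGGA, any 2 bases, T, any base, CC) occurred in 0 of the 29 and in 4.01% of all, and the metal response core, TGCACNC or TGCGCNC, in 4 (13.8%), those of Mt1, Mt2, Fga and Fgg, and in 25.7% of all. A match describes letters in a window, not binding.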

How the data were processed

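The authors' deposited table holds 1 log2 value per probe set and array (22690 probe sets, 21 arrays), made from Affymetrix signals with GCRMA, per the submitters' processing notes; its version was not given in the sources used here, and neither were other steps. GCRMA corrects background and summarises probes, so values near the bottom of the scale carry little information, and no scanner files were used. RNA was prepared with a 3-prime labelling protocol, per the labels, which makes probe sets far from the 3' end sensitive to RNA integrity. Precision is limited by the number of arrays.

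Probe sets with 1 gene symbol in the platform annotation (20380) were used, 1 per gene. Contrasts were taken from a single limma model over the 6 groups (limma 3.58.1, R 4.3.3; lmFit and eBayes, 15 residual degrees of freedom), with two-sided Benjamini-Hochberg adjustment over 7320 genes and a threshold of 0.05. The models were tested on simulated data. Python 3.11.15 and matplotlib 3.10.9 served for figures and promoter letters. The 35 genes, the other gene lists and the alternatives were chosen with earlier results of these data known. Genes were named as all members, and from each other list up to 4 that passed, by size of change.

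Same-numbered samples came from the same animal, per the series' design text. For these 9 pairs, deviations from group means correlated at −0.0568 to 0.303 (median 0.119), and the mouse as a random block (correlation 0.108) was an alternative.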

Additional observations from a re-analysis of the deposited data

Results flagged for a closer look

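Among the 6 KO day 0 livers, 1 value stood far from the other 5 for 6 of the 32 genes tested for this, and in each case it was the highest, from mouse 258. Its values were 14.86 for Orm1 (others 13.42 to 13.80), 14.06 for Apcs (11.24 to 11.76), 14.02 for Itih3 (12.54 to 12.94), 12.99 for Cfb (12.11 to 12.44), 9.58 for Cd14 (6.50 to 7.57) and 3.41 for A2m (2.67 to 2.86), the last near background. Chance alone would mark about 1 in 20 groups if they were independent, which 32 genes read in the same 6 livers are not. This array's Gapdh 3' minus 5' difference was 0.12, in the range of the other arrays below 1, and its own day 2 sample read 14.28 for Apcs.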

How the results depend on the processing

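The 27 differences of acute phase genes that passed kept their direction under all 31 alternatives run, 21 of which left out 1 array each. Of 837 values, 691 stayed past the threshold and 146 did not, and the cause was not tested except where fewer samples or other genes entered the test. For 30 passing differences of other genes given here with their size, 761 of 928 values stayed past the threshold, 167 did not and 0 turned direction. Without control day 2 mouse 265, 2.36% of all genes passed between control day 2 and day 0, in place of 9.51%. KO against control on day 0 gave 3 genes in place of 5 with no filter, with every probe set tested on its own and with each array centred on its median, and 2 to 6 when 1 array was left out. Control day 2 against day 0 gave 2 in place of 16 when only those groups were fitted (23 at an unadjusted p under 0.05), 0 by limma without the 3 arrays with a Gapdh difference above 1 (23 likewise), and 6 to 23 when 1 array was left out. Control day 6 against day 0 gave 0 in place of 6 when only those groups were fitted (19 likewise), and 0 to 12 when 1 array was left out. With the mouse as a replicate block the counts were 21 for control day 2 (the same 16 and 5 more: Saa3, Serpina3n, Steap4, Mt1 and Mt2) and 7 for control day 6 (the same 6 and Itih3), and the block changed no other count. Leaving out 1 array gave 0 to 7 genes for KO day 2 against day 0 and 0 to 1 for KO day 6 against day 0. It gave 0 to 1 for KO against control on day 2, with A2m without control day 2 mouse 263, Stat3 (2.06) without control day 2 mouse 264 and Il1rn (1.39) without KO day 2 mouse 250. Control day 6 against day 2 and the difference between genotypes in the day 2 change also gave 0 to 1, A2m without control day 2 mouse 263 in both. Values near log2 4 or above 14 leave little room to read a change.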

Other observations

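Other plasma proteins of the liver, outside the 32 genes, were counted in the same way. Over all genes, 9.66% passed between KO and control livers on day 0. Of 29 other positive acute phase proteins tested, none passed in KO against control livers on day 0, and 4 rose in control livers by day 2, where 5.23% of all genes rose: Fgl1, a fibrinogen-like protein secreted by hepatocytes (3.88 ± 0.68 SE, adjusted p = 0.00416), Vnn1, a pantetheinase (5.98 ± 1.23 SE, adjusted p = 0.00862), Mbl1, a mannose-binding lectin (1.20 ± 0.23 SE, adjusted p = 0.00594), and Fn1, fibronectin (0.86 ± 0.26 SE, adjusted p = 0.0473). Fgl1 read 13.61, 13.80 and 14.09 in KO livers on day 2, and between 9.86 and 13.80 (median 10.64) on day 0, where the highest day 0 value was again that of mouse 258. Control livers read 14.06, 14.25 and 14.30 on day 2, and 10.39, 9.81 and 10.78 on day 0, without overlap. Vnn1 read 6.93, 11.06 and 13.21 in control livers on day 2, and 5.24, 4.02 and 4.01 on day 0. The day 0 values of mice 265 and 303 were near background, so the size of the Vnn1 difference is not well determined. Its highest value, 13.21, was that of mouse 265, the array with the largest Gapdh difference.

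Of 16 tested negative acute phase proteins, whose plasma levels are known to drop in inflammation, 3 were lower in KO livers on day 0 and none was higher, where 2.87% of all genes were lower. These were Igfals, the acid-labile carrier subunit of insulin-like growth factors (−1.69 ± 0.35 SE, adjusted p = 0.00375), Pon1, paraoxonase 1 of high density lipoprotein (−0.88 ± 0.26 SE, adjusted p = 0.0399), and Apom, apolipoprotein M (−0.82 ± 0.22 SE, adjusted p = 0.0236). In control livers 1 of the 16, Serpina6, the corticosteroid-binding globulin, fell by day 2, where 4.28% of all genes fell. It read 11.65, 8.97 and 8.55 in KO livers on day 2, and between 8.75 and 11.89 (median 10.655) on day 0. Control livers read 9.43, 9.10 and 6.01 on day 2, and 11.98, 12.01 and 12.01 on day 0, a difference of −3.82 ± 0.84 (SE, adjusted p = 0.0121). Of 10 liver transcription factors known to act on acute phase genes, none passed on day 0 between genotypes, where 9.66% of all genes did. Foxa3 rose in control livers by day 2 (1.27 ± 0.32 SE, adjusted p = 0.0212), where 5.23% of all genes rose.

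Marco, a scavenger receptor of macrophages, was higher on day 6 than on day 0 in control livers (5.78 ± 1.32 SE, adjusted p = 0.0208) and lower in KO than in control livers on day 6 (−5.39 ± 1.32 SE, adjusted p = 0.0421). All its control day 0 and KO day 6 values were at or under 4, near background. The sizes of both differences are therefore not well determined. Of 13 macrophage markers tested, the other 12 did not pass in either comparison. By day 6, 2.12% of all genes were higher in control livers. Between KO and control livers on day 6, 1.73% of all genes passed, and the median difference of the 13 markers was 0.23.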
